A study of Mus musculus with 8 samples.

Results

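The machinery that starts, carries out and restrains apoptosis was followed through 8 genes: Casp2, Casp6, Casp8, Casp9, Apaf1, Xiap, Birc2 and Birc3. They were chosen by name from the gene column of the count table, which lists 53700 genes, and all 8 were found and tested in every group. Their RNA was measured in Lewis lung carcinoma (LLC) cells, a mouse lung tumor line, either WT or FIH-KO, after 16 hours at 21% O2 (normoxia) or 1% O2 (hypoxia). There were 2 libraries in each of the 4 groups, WT normoxia, WT hypoxia, FIH-KO normoxia and FIH-KO hypoxia, and 8 libraries in all. FIH is the asparagine hydroxylase that restrains hypoxia-inducible factors, and Hif1an is its mouse gene. The FIH-KO cells were made with CRISPR/Cas9 and single-cell dilution, and how many clones the sequenced cells came from is not given in the sources used here. A difference between genotypes therefore cannot be told apart from a difference between clones. No drug treatment was given to any group. The labels do not say that the libraries of a group came from separate cultures, so p values measure only the spread between these libraries.

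Caspases are proteases that wait in the cell as inactive precursors. Initiator caspases are switched on by being brought together on a platform: caspase-8 at death receptors through FADD, caspase-9 on the apoptosome that APAF1 forms once cytochrome c leaves mitochondria, and caspase-2 on a platform built by PIDD1 and CRADD. Executioner caspases, among them caspase-6, then cut many cellular proteins. Inhibitor of apoptosis proteins (IAPs) oppose them. XIAP binds and blocks caspases directly, while the proteins of Birc2 (cIAP1) and Birc3 (cIAP2) are ubiquitin ligases that act on RIPK1, TRAF proteins and the kinase NIK, and Birc3 is itself a known NF-kB target gene. All of these steps are controlled largely after transcription, and the libraries measured RNA only.

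Library totals ran from 14519731 to 18177016 counts, and values between libraries are given as CPM (read counts relative to the library total) scaled with the TMM factors of edgeR. Hif1an had 82.3 to 90.2 CPM in the 4 WT libraries and 34.8 to 51.0 CPM in the 4 FIH-KO libraries, so the labels and the targeted gene went the same way while its RNA remained detectable. Keratin genes Krt8 and Krt18 were expressed, whereas the epithelial markers Epcam, Cdh1 and Cldn4 were at 3 counts or fewer in every library. Of 5 leukocyte markers, 4 were at 3 counts or fewer throughout, and the summed level of the list was 2.70 to 7.25 CPM. The 4 mesenchymal markers summed to 4395 to 5990 CPM in WT libraries and 8249 to 11020 CPM in FIH-KO libraries, and their part in the genotype results was not tested. In such bulk samples, fewer cells expressing a gene and less RNA per cell cannot be told apart.

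The promoters of the 4 genes that passed a test in at least 1 comparison are shown first. Whether these windows take part in the response to oxygen was not tested. Each run is the 250 bases before the annotated start of the canonical transcript in GRCm39, written 5′ to 3′ on the strand of the gene. They lie at chr6:42241668-42241917 (plus strand, Casp2), chr1:58834127-58834376 (plus strand, Casp8), chr4:141520673-141520922 (plus strand, Casp9) and chr9:7873230-7873479 (minus strand, Birc3). Capitals mark the core of the hypoxia response element (HRE), ACGTG or GCGTG, searched on both strands.
Casp2: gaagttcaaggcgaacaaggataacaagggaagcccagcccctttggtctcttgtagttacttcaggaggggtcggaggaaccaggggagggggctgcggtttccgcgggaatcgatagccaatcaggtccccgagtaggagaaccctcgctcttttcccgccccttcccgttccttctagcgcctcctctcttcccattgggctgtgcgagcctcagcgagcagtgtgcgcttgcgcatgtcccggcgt
Casp8: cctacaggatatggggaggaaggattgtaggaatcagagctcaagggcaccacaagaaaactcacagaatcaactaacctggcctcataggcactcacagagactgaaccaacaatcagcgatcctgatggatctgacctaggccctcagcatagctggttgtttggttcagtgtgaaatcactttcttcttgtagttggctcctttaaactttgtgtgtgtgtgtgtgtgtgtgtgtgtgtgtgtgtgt
Casp9: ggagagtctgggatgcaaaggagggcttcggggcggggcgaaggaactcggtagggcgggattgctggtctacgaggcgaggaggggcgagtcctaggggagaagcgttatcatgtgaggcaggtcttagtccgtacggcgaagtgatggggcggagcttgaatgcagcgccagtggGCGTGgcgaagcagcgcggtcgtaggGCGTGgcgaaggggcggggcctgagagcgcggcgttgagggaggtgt
Birc3: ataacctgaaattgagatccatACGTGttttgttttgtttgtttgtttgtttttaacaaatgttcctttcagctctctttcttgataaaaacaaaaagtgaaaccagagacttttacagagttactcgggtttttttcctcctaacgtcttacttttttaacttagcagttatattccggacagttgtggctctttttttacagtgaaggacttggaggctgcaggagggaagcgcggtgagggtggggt

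The Casp9 promoter held 2 such cores, from 73 to 69 and from 47 to 43 bases before the start, and the Birc3 promoter held 1, from 228 to 224 bases before it. None was found in the windows of Casp2 and Casp8. Over the 8 genes, 6 windows held at least 1 core, beside 41.3% of 21757 windows of protein-coding genes of the same length. The core ACGTG is part of the E-box CACGTG, which none of the 8 windows held and 6.26% of all windows did. The NF-kB pattern searched on both strands was GGGRNNYYCC, where R is A or G, Y is C or T and N is any base. It was found in 0 of the 8 windows and in 7.63% of all windows, and sites that differ from it would be missed. Such matches describe letters in a window and not binding. The GC content was 66.0% for Casp9, 60.4% for Casp2, 46.8% for Casp8 and 38.8% for Birc3.

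Per kilobase of exon, the only scale on which levels of different genes are compared here, Casp8 was the most abundant of the 8 and Birc3 the least abundant in every group. The length used was that of all annotated exons of a gene merged, from 3081 bases for Casp8 to 10591 for Apaf1. The order of the genes and the sums of RPKM therefore depend on the annotation, and which transcripts the cells made was not tested. In WT normoxia the level of Casp8 was 20.7 ± 2.61 RPKM, and that of Birc3 was 0.328 ± 0.0390 RPKM (SD, n = 2 each). Casp2 followed Casp8 in WT normoxia with 10.6 ± 0.220 RPKM, ahead of Xiap with 10.0 ± 0.124, Apaf1 with 8.10 ± 0.0975, Casp9 with 4.56 ± 0.321, Birc2 with 4.19 ± 0.101 and Casp6 with 2.50 ± 0.113 RPKM (SD, n = 2 each). No neighbouring pair in this order overlapped between libraries. In FIH-KO cells Casp2 stood below Casp8, Xiap and Apaf1, at 7.83 ± 0.202 RPKM in normoxia and 7.52 ± 0.0597 RPKM in hypoxia (SD, n = 2 each). There the libraries of Apaf1 and Casp2 overlapped in normoxia and those of Casp9 and Birc2 overlapped in hypoxia, while the remaining neighbours did not.

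**Figure D1:**
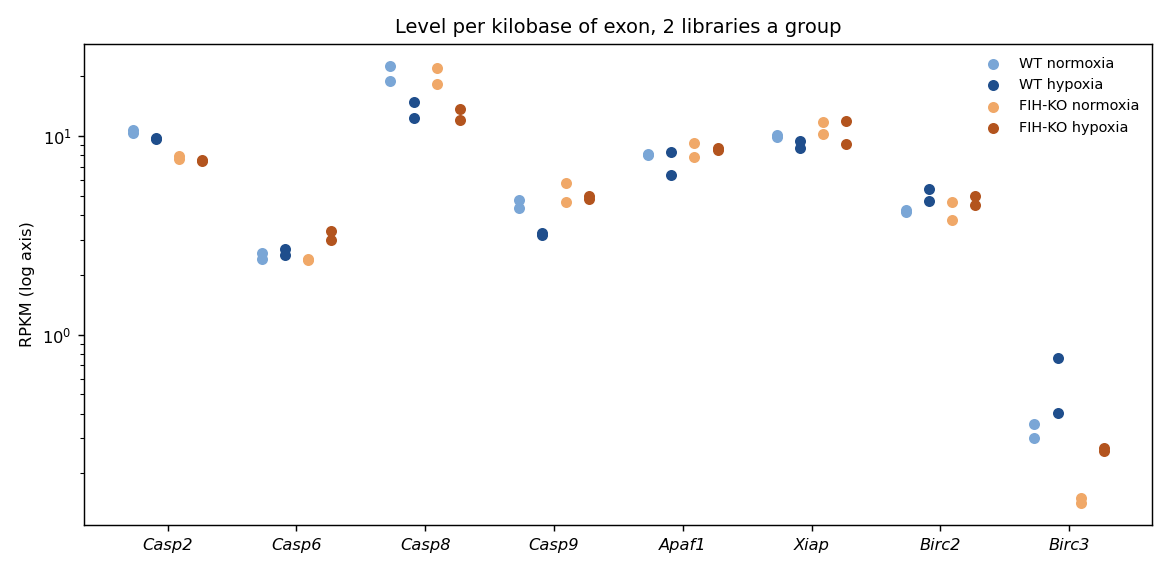
Level of each of the 8 genes in RPKM on a log axis, with 1 point for each of the 2 libraries of a group. Casp8 has the highest and Birc3 the lowest mean in all 4 groups.

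The 4 caspases together summed to 36.7 and 40.1 RPKM in WT normoxia and 28.1 and 30.2 RPKM in WT hypoxia. In FIH-KO cells the sums were 38.2 and 33.2 RPKM in normoxia and 27.6 and 29.4 RPKM in hypoxia. Every hypoxic library was below every normoxic one. Casp8 made up most of this, with group means that went from 20.7 to 13.6 RPKM in WT and from 20.3 to 12.9 RPKM in FIH-KO cells, so the sum is mainly a readout of Casp8 rather than of 4 caspases moving together. The 3 IAP genes summed to between 13.8 and 17.2 RPKM, with overlapping groups, and the ratio of the caspase sum to the IAP sum was 2.31 to 2.76 in normoxic libraries and 1.71 to 1.997 in hypoxic ones.

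Between FIH-KO and WT cells, 2 of the 8 genes passed the test in normoxia (Casp2 and Birc3, both lower) and 3 in hypoxia (Casp2 and Birc3 lower, Casp9 higher), with the threshold at 0.05 for p values adjusted over all tested genes in the quasi-likelihood test of edgeR. Over all 13933 tested genes, 28.2% passed in normoxia and 28.0% in hypoxia, so these counts are near the background share. The median log2 fold change of the 8 genes was -0.01 in normoxia and 0.08 in hypoxia, beside -0.003 and -0.032 over all tested genes. Between hypoxia and normoxia, 2 genes passed in WT cells (Casp8 and Casp9, both lower), where 32.4% of all genes did, and 1 passed in FIH-KO cells (Casp8, lower), where 16.8% did. The medians of the 8 genes were -0.13 in WT and -0.03 in FIH-KO cells, beside -0.001 and -0.027 over all tested genes. The comparisons share libraries, and they are given side by side for each gene.

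**Figure D2:**
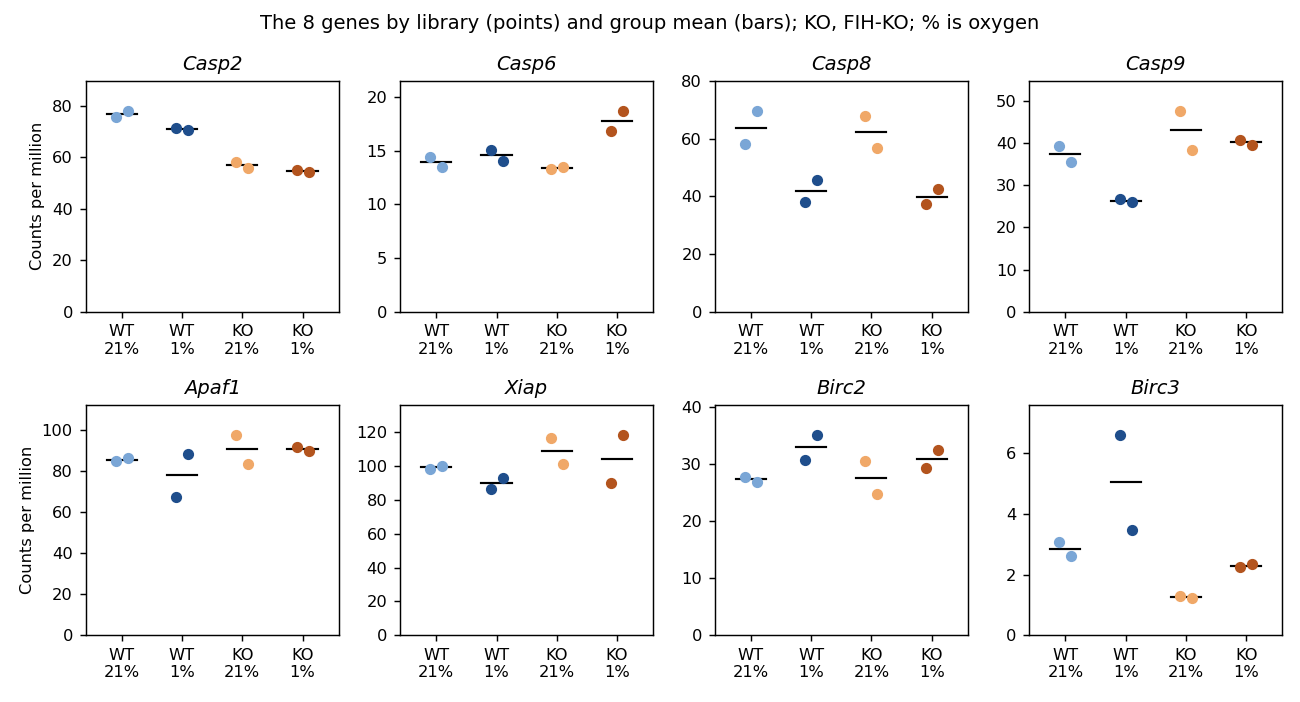
CPM of the 8 genes in each library (points) with the group mean (horizontal bars), each gene on its own axis from 0. Casp2 and Birc3 are lower in all FIH-KO libraries than in the WT libraries at the same oxygen level, Casp8 is lower in all hypoxic libraries, and Casp9 is lowest in the WT hypoxia libraries.

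Casp2 (ENSMUSG00000029863.14, GRCm39 chr6:42241918-42259443, plus strand) encodes the initiator of the PIDD1 platform, which responds to DNA damage and to extra centrosomes. Its level was 75.6 and 77.9 CPM in WT normoxia and 58.0 and 55.9 CPM in FIH-KO normoxia. In hypoxia it was 71.4 and 70.6 CPM in WT and 54.96 and 54.4 CPM in FIH-KO cells. Every FIH-KO library was below every WT library, whatever the oxygen level. The log2 fold change of FIH-KO over WT was -0.43 in normoxia (SE 0.105, adjusted p = 0.0097, edgeR) and -0.38 in hypoxia (SE 0.106, adjusted p = 0.020, edgeR). The medians of the 681 tested genes of chromosome 6 were -0.12 and -0.13. Hypoxia itself changed Casp2 by -0.11 in WT cells (95% interval -0.34 to 0.12) and by -0.06 in FIH-KO cells (-0.29 to 0.17), and neither passed the test. The normoxic call was lost without WT normoxia replicate 1 (-0.48, adjusted p = 0.056) or replicate 2 (-0.43, adjusted p = 0.074). The hypoxic call was lost without any 1 of the 4 hypoxic or the 2 WT normoxia libraries, with -0.38 to -0.34 and adjusted p values from 0.059 to 0.12, and with no low-count filter (adjusted p = 0.096) or only the 4 hypoxic libraries in the fit (adjusted p = 0.077).

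Casp8 (ENSMUSG00000026029.15, GRCm39 chr1:58834375-58886665, plus strand) encodes the initiator that death receptors recruit and that also holds back necroptosis. WT cells had 58.2 and 69.6 CPM in normoxia and 38.0 and 45.5 CPM in hypoxia. FIH-KO cells had 68.1 and 56.7 CPM in normoxia and 37.3 and 42.4 CPM in hypoxia. All 4 hypoxic libraries were below all 4 normoxic ones, and at either oxygen level the genotypes overlapped. The log2 fold change of hypoxia over normoxia was -0.62 in WT cells (SE 0.148, adjusted p = 0.0079, edgeR) and -0.65 in FIH-KO cells (SE 0.148, adjusted p = 0.012, edgeR), beside chromosome 1 medians of 0.03 and 0.02. The 2 effects differed by -0.03 with a 95% interval from -0.49 to 0.42, so the data leave room for a difference in either direction. The genotype effect was -0.04 in normoxia (95% interval -0.35 to 0.28) and -0.07 in hypoxia (-0.39 to 0.26). The WT call was lost without WT hypoxia replicate 1 (-0.53, adjusted p = 0.069) or WT normoxia replicate 2 (-0.52, adjusted p = 0.083). The FIH-KO call was lost without FIH-KO hypoxia replicate 1 (-0.53, adjusted p = 0.077) or FIH-KO normoxia replicate 1 (-0.49, adjusted p = 0.11).

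Casp9 (ENSMUSG00000028914.14, GRCm39 chr4:141520923-141546508, plus strand) encodes the protease of the apoptosome. It was at 39.4 and 35.7 CPM in WT normoxia and at 26.7 and 26.1 CPM in WT hypoxia. In FIH-KO cells it was at 47.6 and 38.5 CPM in normoxia and at 40.9 and 39.5 CPM in hypoxia. The WT hypoxia libraries stood below all 6 others, whereas the FIH-KO groups overlapped. Hypoxia lowered Casp9 in WT cells, with a log2 fold change of -0.51 (SE 0.140, adjusted p = 0.016, edgeR), and its effect in FIH-KO cells was -0.10 (95% interval -0.40 to 0.20, adjusted p = 0.68, edgeR). In hypoxia Casp9 was higher in FIH-KO than in WT cells by 0.61 (SE 0.140, adjusted p = 0.0073, edgeR), a fold of 1.52, and in normoxia the difference was 0.20 (SE 0.137, adjusted p = 0.31). The medians of the 818 tested genes of chromosome 4 were -0.01 in both. The test of the difference between these 2 genotype effects gave 0.41 (SE 0.195, 95% interval -0.02 to 0.83, adjusted p = 0.76, edgeR) and did not pass. The hypoxic genotype call held without each library in turn and under the other settings, with adjusted p values from 0.00092 to 0.048. The fall in WT cells was not called without WT hypoxia replicate 1 (-0.56, adjusted p = 0.055), WT hypoxia replicate 2 (-0.49, adjusted p = 0.078) or WT normoxia replicate 1 (-0.48, adjusted p = 0.095).

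In the test of whether the genotype effect differed between oxygen levels, none of the 8 genes was called by edgeR or DESeq2. Over all genes edgeR called 0 of 13933 (0%), with 925 genes (6.64%) at an unadjusted p under 0.05, none of them among the 8, and DESeq2 called 35.

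**Figure D3:**
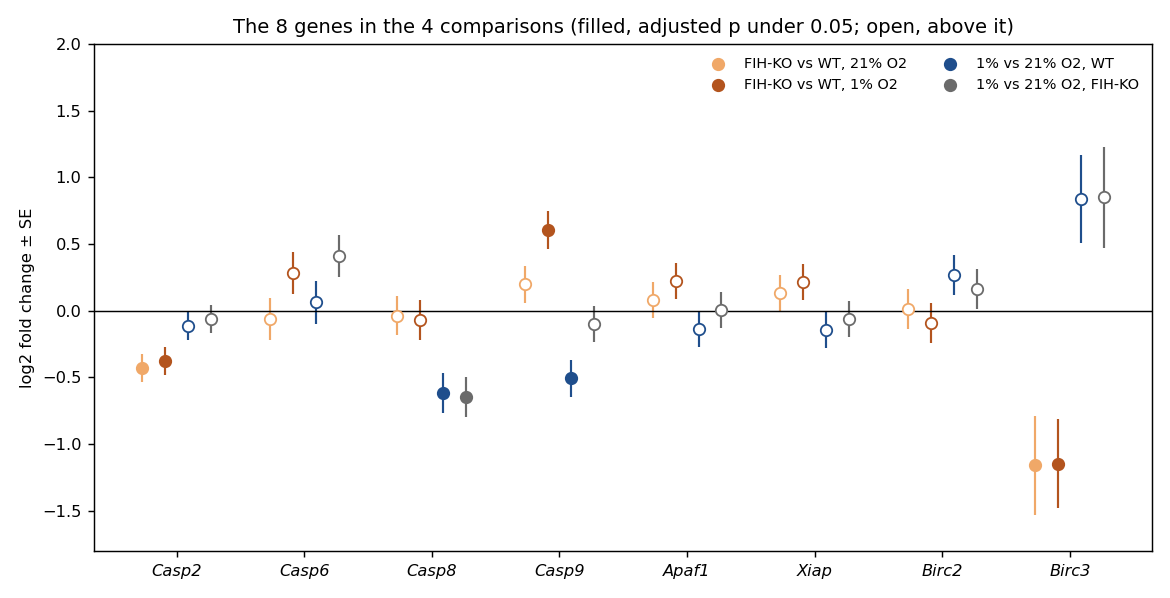
log2 fold changes of the 8 genes (points, with SE bars) in the 4 comparisons. Filled points had an adjusted p under 0.05 and open points did not. The longest SE bars, up to 0.381, are those of Birc3, the gene with the fewest reads.

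Apaf1 (ENSMUSG00000019979.13, GRCm39 chr10:90825173-90918686, minus strand), the scaffold of the apoptosome, did not pass the test in any comparison. Its levels were 85.1 and 86.5 CPM in WT normoxia, 67.8 and 88.5 CPM in WT hypoxia, 97.9 and 83.6 CPM in FIH-KO normoxia and 92.0 and 89.8 CPM in FIH-KO hypoxia. The groups overlapped except in hypoxia, where both FIH-KO libraries were above both WT libraries by a small margin. That difference was 0.22 on the log2 scale (95% interval -0.08 to 0.51, adjusted p = 0.25, edgeR), beside a chromosome 10 median of 0.14. The remaining 3 differences lay between -0.14 and 0.08.

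Casp6 (ENSMUSG00000027997.10, GRCm39 chr3:129695069-129707752, plus strand) encodes the executioner best known for cutting lamin A. Its level was 14.4 and 13.5 CPM in WT normoxia, 15.1 and 14.1 CPM in WT hypoxia, 13.3 and 13.4 CPM in FIH-KO normoxia and 16.8 and 18.7 CPM in FIH-KO hypoxia. The FIH-KO hypoxia libraries were above all others. Hypoxia in FIH-KO cells gave a log2 fold change of 0.41 (SE 0.159, adjusted p = 0.10, edgeR), and FIH-KO over WT in hypoxia gave 0.28 (95% interval -0.06 to 0.63, adjusted p = 0.21). The 683 tested genes of chromosome 3 had a median of -0.41 between FIH-KO and WT cells in hypoxia and -0.36 in normoxia, where Casp6 had -0.06. On the opposite strand Casp6 overlaps Mcub, which held 99 to 191 counts a library beside 206 to 287 for Casp6, and whether reads were assigned by strand is not given in the sources used here.

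Xiap (ENSMUSG00000025860.16, GRCm39 chrX:41148481-41198541, plus strand), the direct caspase inhibitor, passed no test. It had 98.2 and 99.9 CPM in WT normoxia, 86.1 and 93.0 CPM in WT hypoxia, 116.2 and 100.9 CPM in FIH-KO normoxia and 89.8 and 118.2 CPM in FIH-KO hypoxia. Hypoxia in WT cells gave -0.15 (95% interval -0.44 to 0.15), with both hypoxic libraries below both normoxic ones. In normoxia both FIH-KO libraries were just above both WT libraries, with a log2 fold change of 0.13 (95% interval -0.16 to 0.43, adjusted p = 0.51, edgeR). In hypoxia the FIH-KO libraries spread more widely than the difference of 0.22 (95% interval -0.08 to 0.51, adjusted p = 0.27, edgeR). Without FIH-KO hypoxia replicate 1 that difference was 0.44 and passed (adjusted p = 0.023), so 1 library decided this result.

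Birc2 (ENSMUSG00000057367.13, GRCm39 chr9:7818227-7837120, minus strand), the gene of cIAP1, changed little. Its levels were 27.8 and 26.9 CPM in WT normoxia, 30.8 and 35.2 CPM in WT hypoxia, 30.5 and 24.7 CPM in FIH-KO normoxia and 29.3 and 32.5 CPM in FIH-KO hypoxia. Among the 4 comparisons, only that of WT hypoxia with WT normoxia had groups that did not overlap, with a log2 fold change of 0.27 for hypoxia (95% interval -0.05 to 0.59, adjusted p = 0.19, edgeR). The genotype differences were 0.01 in normoxia (95% interval -0.31 to 0.34) and -0.09 in hypoxia (-0.41 to 0.23).

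Birc3 (ENSMUSG00000032000.18, GRCm39 chr9:7845790-7873229, minus strand), the gene of cIAP2, lies 8669 bases from Birc2 and behaved differently from it. It held few reads: 48 and 44 counts in WT normoxia, 118 and 51 in WT hypoxia, 22 and 22 in FIH-KO normoxia and 36 and 36 in FIH-KO hypoxia. In CPM these were 3.09 and 2.61, 6.61 and 3.48, 1.31 and 1.23, and 2.25 and 2.34. All FIH-KO libraries were below all WT libraries, and in each genotype the hypoxic libraries were above the normoxic ones. FIH-KO over WT gave a log2 fold change of -1.16 in normoxia (SE 0.372, adjusted p = 0.036, edgeR) and -1.15 in hypoxia (SE 0.336, adjusted p = 0.024, edgeR), beside a chromosome 9 median of -0.17 and -0.16. Hypoxia over normoxia gave 0.84 in WT cells (95% interval 0.13 to 1.55, adjusted p = 0.069, edgeR) and 0.85 in FIH-KO cells (95% interval 0.02 to 1.68, adjusted p = 0.15, edgeR), and neither passed.

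A single library weighed heavily on Birc3. Without WT hypoxia replicate 1, which held 118 reads, the hypoxic genotype effect was -0.57 (adjusted p = 0.32) and the hypoxia effect in WT cells was 0.26 (adjusted p = 0.65). Without WT hypoxia replicate 2 the hypoxia effect in WT cells was 1.21 and passed (adjusted p = 0.022), as it did with no low-count filter (0.83, adjusted p = 0.035). The hypoxic genotype call was also lost without FIH-KO hypoxia replicate 1 (-1.08, adjusted p = 0.078) or replicate 2 (-1.17, adjusted p = 0.064) and with only the 4 hypoxic libraries in the fit (-1.12, adjusted p = 0.064). The normoxic call was lost without any 1 of the 4 normoxic libraries, with -1.30 to -1.06 and adjusted p values from 0.082 to 0.17. Both genotype effects were negative in each of these fits.

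Within 500 kb of the Birc3 start, 11 genes including Birc3 itself were tested. Birc2 and Yap1, its nearest tested neighbours on either side, were called in no comparison. Cep126, 261 kb away, was lower in FIH-KO cells, with -1.64 in normoxia (adjusted p = 0.019, edgeR) and -1.33 in hypoxia (adjusted p = 0.012), and higher in hypoxia, by 1.74 in WT cells (adjusted p = 0.0029) and 2.05 in FIH-KO cells (adjusted p = 0.0090). Each of these calls was lost when single libraries were left out. The normoxic genotype call was lost without FIH-KO normoxia replicate 1 (adjusted p = 0.12) or WT normoxia replicate 1 (adjusted p = 0.20), and the hypoxic one without WT hypoxia replicate 1 (0.065) or replicate 2 (0.058). The hypoxia call was lost without WT normoxia replicate 2 in WT cells (1.31, adjusted p = 0.056) and without FIH-KO normoxia replicate 1 in FIH-KO cells (adjusted p = 0.068). On the other side, Mmp3, a matrix metalloproteinase gene, was higher in FIH-KO cells by 1.65 and 1.49 (adjusted p = 6.1e-05 and 0.00012, edgeR). Between genotypes, the genes around Birc3 thus moved in both directions. With hypoxia in WT cells, Mmp10 (3.09, adjusted p = 0.00024, edgeR), Mmp1a (2.72, adjusted p = 0.0018) and Mmp1b (1.67, adjusted p = 0.017) were higher, as Cep126 was. Tmem123 was lower there (-0.44, adjusted p = 0.017, edgeR). These further calls were not followed with single libraries left out.

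**Figure D4:**
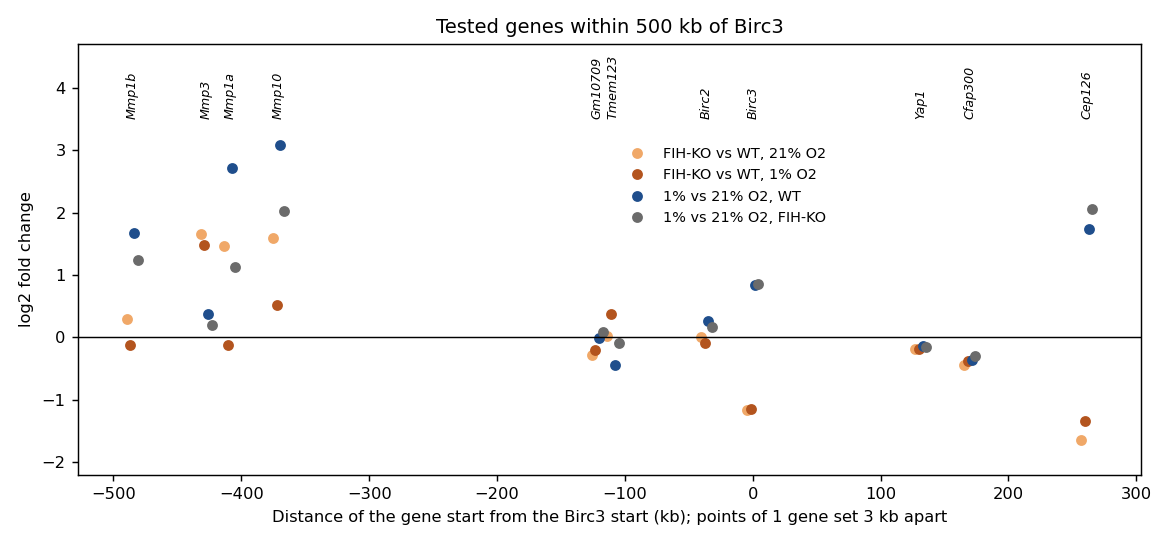
log2 fold changes of the 11 tested genes within 500 kb of the Birc3 start in the 4 comparisons, against the distance of each gene's start from that of Birc3 in kb. Birc3 and Cep126 are below 0 for FIH-KO and above 0 for hypoxia, Birc2 and Yap1 lie between -0.19 and 0.27, and most points of the Mmp genes are above 0.

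Casp8 also has a relative beside it: Cflar, which encodes the caspase-8 regulator c-FLIP, ends 36327 bases before the Casp8 start. Cflar had log2 fold changes from 0.09 to 0.16 in the 4 comparisons, and none passed (adjusted p = 0.38 to 0.67, edgeR). Among the other tested genes within 500 kb of Casp8, Clk1, a splicing kinase gene, was higher in hypoxia by 1.00 in WT and 0.99 in FIH-KO cells (adjusted p = 0.00036 and 0.00081, edgeR), opposite in sign to Casp8. Ndufb3, of respiratory complex I, and Bzw1 were lower in hypoxia in WT cells, as Casp8 was, by log2 fold changes of -0.73 and -0.47 (adjusted p = 0.0016 and 0.0054, edgeR), and did not pass in FIH-KO cells (-0.17 and -0.13). The tested genes around Casp8 thus also moved in both directions.

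The expression patterns most like those of the 8 genes were looked up by Pearson's r over log2 CPM of the 8 libraries, which form 4 groups of 2. The 10575 other genes (10576 for Birc3) whose mean reached 50 counts were searched. The closest were Tbx3 for Casp2 (Pearson r = 0.992), Acat1 for Casp8 (0.984), Cd300lb for Casp9 (0.995), Map3k12 for Apaf1 (0.964), Son for Casp6 (0.963), Bmpr1a for Xiap (0.984), Thap2 for Birc2 (0.987) and Smarcad1 for Birc3 (0.988). Casp2 had 164 genes with r over 0.95, and Apaf1 and Xiap had 1 each. With so few points high values are common, and they describe likeness of pattern only.

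The other genes of the pathway were read from 7 lists with 49 genes, of which 45 were tested. Of these, 11 rose and 6 fell with FIH-KO in normoxia, 5 rose and 9 fell with FIH-KO in hypoxia, 8 rose and 9 fell with hypoxia in WT cells, and 4 rose and 7 fell with hypoxia in FIH-KO cells. Over all tested genes 28.2%, 28.0%, 32.4% and 16.8% passed in these comparisons, in either direction. The medians over the 45 genes were 0.09, 0.08, 0.10 and 0.00.

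**Figure D5:**
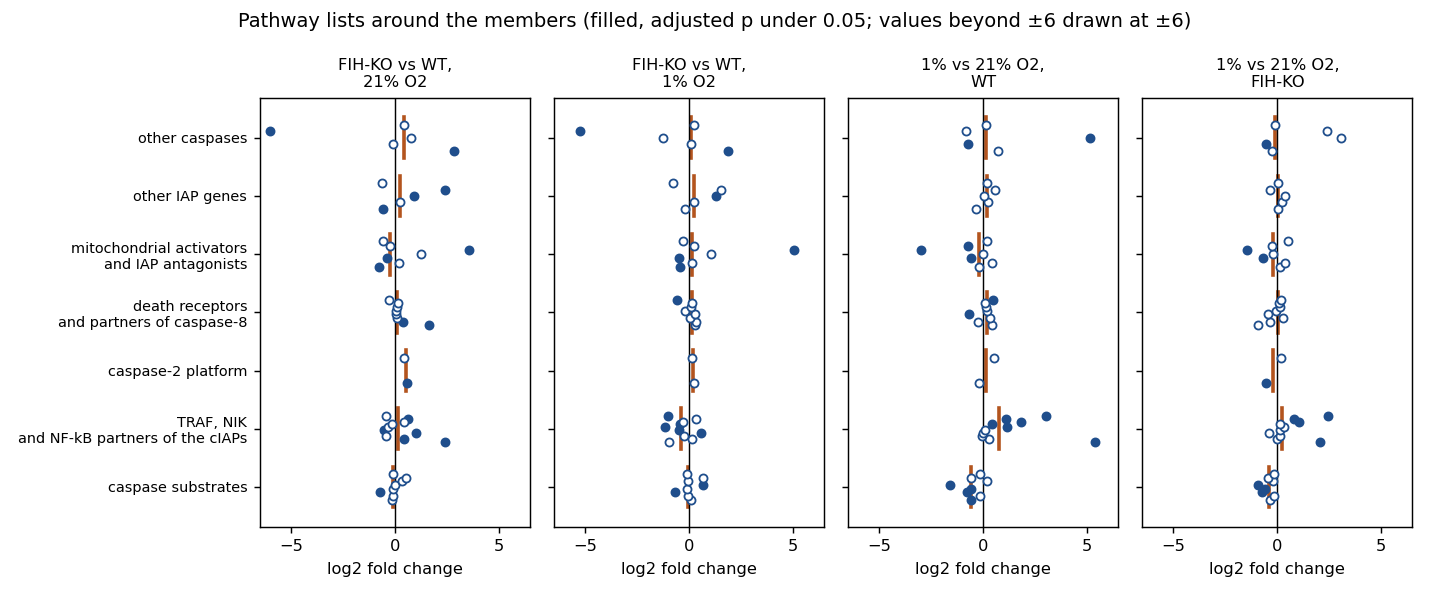
log2 fold changes of the genes of the 7 pathway lists (points, filled where the adjusted p was under 0.05) with the median of each list (vertical bar) in the 4 comparisons. Values beyond ±6 are drawn at ±6. The NF-kB list is shifted to higher values with hypoxia in WT cells, and the caspase substrates to lower values.

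Outside the 8 genes, Casp1, which encodes the inflammatory caspase that matures interleukin-1β, was higher in FIH-KO cells. It held 4 and 7 counts in WT normoxia, 10 and 8 in WT hypoxia, 44 and 40 in FIH-KO normoxia, and 36 and 28 in FIH-KO hypoxia. This was a log2 fold change of 2.82 in normoxia (adjusted p = 0.00064, edgeR) and 1.87 in hypoxia (adjusted p = 0.0053, edgeR). Every FIH-KO library was above every WT library, and both calls held under each alternative that tested the gene. The filter of at least 10 counts in every library removed it.

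Of the 5 tested genes of the other IAPs, 2 rose and 1 fell with FIH-KO in normoxia, 1 rose in hypoxia, and none passed for the oxygen comparisons in edgeR (28.2%, 28.0%, 32.4% and 16.8% of all genes). The normoxic counts were 0 and 0 without FIH-KO normoxia replicate 1 or WT normoxia replicate 1. Birc5, the gene of the mitotic protein survivin, fell by 0.60 on the log2 scale in FIH-KO normoxia (adjusted p = 0.010, edgeR), from 154.1 and 149.2 CPM to 96.6 and 103.0 CPM. That call was lost without FIH-KO normoxia replicate 1 (adjusted p = 0.073) or WT normoxia replicate 1 (adjusted p = 0.067). Naip2, a sensor of bacterial proteins, was higher in FIH-KO cells by 0.92 in normoxia (adjusted p = 0.010, edgeR) and 1.27 in hypoxia (adjusted p = 0.0016, edgeR), the first of these lost without the same 2 libraries (adjusted p = 0.085 and 0.13). The Naip genes are close copies of each other, so how their reads were shared is uncertain.

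The mitochondrial activators and IAP antagonists had 1 riser and 2 fallers among 7 with FIH-KO at either oxygen level, and 3 and 2 fallers with hypoxia in WT and FIH-KO cells (28.2%, 28.0%, 32.4% and 16.8% of all genes). In hypoxia 0 fell with FIH-KO without WT hypoxia replicate 2, and 1 fell without WT hypoxia replicate 1 or FIH-KO hypoxia replicate 2. In normoxia 1 fell without FIH-KO normoxia replicate 1 or either WT normoxia library. Septin4, whose ARTS product opposes XIAP, had 29 and 36 counts in WT normoxia, 6 and 2 in WT hypoxia, 459 and 356 in FIH-KO normoxia, and 113 and 152 in FIH-KO hypoxia. Its log2 fold change of FIH-KO over WT was 3.56 in normoxia (adjusted p = 8e-06, edgeR) and 5.07 in hypoxia (adjusted p = 9.8e-06, edgeR). Hypoxia lowered it by log2 fold changes of -2.99 in WT and -1.48 in FIH-KO cells (adjusted p = 0.00078 and 0.0018, edgeR). These are counts of the whole gene, which cannot tell ARTS from the other products of Septin4. Cycs, the gene of cytochrome c, fell by 0.79 on the log2 scale with FIH-KO in normoxia (adjusted p = 0.00047, edgeR) and by 0.43 in hypoxia (adjusted p = 0.015, edgeR), the latter lost without FIH-KO hypoxia replicate 2 (adjusted p = 0.050) or without WT hypoxia replicate 1 (0.066) or replicate 2 (0.10). Cycs has many processed copies in the genome, which can draw reads. Diablo, the gene of the IAP antagonist SMAC, had 0.12 to 0.41 in the 4 comparisons and passed none.

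For the death receptor list, 2 of 8 tested genes rose with FIH-KO in normoxia (Fas and Tnfrsf1a, against 28.2% of all genes in either direction) and 1 fell in hypoxia (against 28.0%). The call of Fas (1.61, adjusted p = 0.044, edgeR) was lost without any 1 of the 8 libraries (adjusted p from 0.057 to 0.32), with DESeq2 (0.22) and with no low-count filter (0.067). That of Tnfrsf1a (0.40, adjusted p = 0.031, edgeR) was lost without FIH-KO normoxia replicate 1 (0.21, adjusted p = 0.33), either WT normoxia library (adjusted p = 0.27 and 0.11) or WT hypoxia replicate 1 (adjusted p = 0.061). With hypoxia 1 rose and 1 fell in WT cells and none passed in FIH-KO cells. Fadd, the adaptor that recruits caspase-8, was lower in hypoxia in WT cells, as Casp8 was, and went from 20.2 and 18.8 CPM to 13.5 and 10.8 CPM, a log2 fold change of -0.68 (adjusted p = 0.010, edgeR) that was lost without WT hypoxia replicate 2 (adjusted p = 0.084) or WT normoxia replicate 1 (adjusted p = 0.060). Casp8ap2, the gene of the caspase-8 associated protein FLASH, had 76.9 and 76.4 CPM in WT normoxia, 102.4 and 109.8 CPM in WT hypoxia, 57.6 and 65.9 CPM in FIH-KO normoxia and 56.8 and 83.0 CPM in FIH-KO hypoxia. It rose by 0.47 with hypoxia in WT cells (adjusted p = 0.037, edgeR) and was lower by FIH-KO in hypoxia, at -0.60 (adjusted p = 0.013, edgeR). The first call was lost without any 1 of the WT or FIH-KO normoxia libraries or either WT hypoxia library (adjusted p up to 0.20), and the second without FIH-KO hypoxia replicate 1 (-0.31, adjusted p = 0.11) or without WT hypoxia replicate 1 (0.063) or replicate 2 (0.088). Of the 2 genes of the caspase-2 platform, Pidd1 rose by 0.60 in FIH-KO normoxia (adjusted p = 0.016, edgeR), opposite in sign to Casp2, and fell with hypoxia in FIH-KO cells, by 0.56 on the log2 scale (adjusted p = 0.032). The first call was lost without FIH-KO normoxia replicate 2 (log2 fold change 0.47) or WT normoxia replicate 1 (0.41). The second was lost when any library other than WT hypoxia replicate 2 was left out (-0.64 to -0.44). That second call was also lost with only the 4 libraries of its comparison in the fit (-0.53, adjusted p = 0.076, edgeR). Cradd passed no test.

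The TRAF, NIK and NF-kB partners of the cIAPs were the list with the most calls for hypoxia in WT cells: 6 of 10 rose (Traf1, Nfkb2, Rela, Relb, Nfkbia and Tnfaip3) and 0 fell, with a median of 0.76 on the log2 scale, where 32.4% of all genes passed in either direction. In FIH-KO cells 4 rose and 0 fell, with a median of 0.23, where 16.8% of all genes passed. In hypoxia, 1 rose and 4 fell in FIH-KO against WT cells, with a median of -0.37, and in normoxia 4 rose and 1 fell, with a median of 0.15 (28.0% and 28.2% of all genes). With single libraries left out, 5 or 6 rose with hypoxia in WT cells, but the other counts moved more. With hypoxia in FIH-KO cells 1 rose without FIH-KO normoxia replicate 1, and 2 rose without FIH-KO normoxia replicate 2 or FIH-KO hypoxia replicate 1. For FIH-KO in hypoxia 1 fell without WT hypoxia replicate 1 and 2 fell without FIH-KO hypoxia replicate 2. For FIH-KO in normoxia 1 rose without FIH-KO normoxia replicate 2 or either WT normoxia library, and 2 rose without FIH-KO normoxia replicate 1, while 3 fell without either FIH-KO hypoxia library and 2 without FIH-KO normoxia replicate 2. Nfkb2, which encodes p100, the precursor of the noncanonical NF-kB arm, had 65.9 and 71.9 CPM in WT normoxia, 155.5 and 144.4 CPM in WT hypoxia, 51.9 and 57.3 CPM in FIH-KO normoxia and 73.9 and 61.3 CPM in FIH-KO hypoxia. Its hypoxia effect was 1.12 in WT cells (adjusted p = 6.2e-05, edgeR) and 0.31 in FIH-KO cells (adjusted p = 0.11, edgeR). Traf1, a partner of both cIAPs, had 2 and 1 counts in WT normoxia and 77 and 60 in WT hypoxia, a ratio of 45.6 with an exact counting interval from 15.3 to 224. In the FIH-KO libraries it had 4 and 14 counts in normoxia and 29 and 38 in hypoxia, a log2 fold change of 2.03 (adjusted p = 0.013, edgeR) that was lost without FIH-KO normoxia replicate 1 (1.46, adjusted p = 0.094). Its FIH-KO effect in normoxia, a ratio of 5.62 with an exact counting interval from 1.64 to 29.8, passed narrowly (adjusted p = 0.045, edgeR). It was lost with DESeq2 (adjusted p = 0.057) and without FIH-KO normoxia replicate 2 (1.27 on the log2 scale, adjusted p = 0.39), either WT normoxia library (adjusted p up to 0.24) or either WT hypoxia library (adjusted p up to 0.068). Birc3, the NF-kB target among the 8 genes, had its highest mean level in the same group, WT hypoxia, where its libraries held 118 and 51 counts. Its hypoxia effect did not pass in WT cells (0.84, adjusted p = 0.069, edgeR) or in FIH-KO cells (0.85, adjusted p = 0.15, edgeR). A link between Birc3 and the genes of this list was not tested. In the test of a difference between the genotype effects, edgeR called no gene of the list. Nfkb2 (-0.81, adjusted p = 0.24, edgeR) was called with DESeq2 (-0.80, adjusted p = 0.037) and with no low-count filter (adjusted p = 0.014), and Traf1 was called with no low-count filter (adjusted p = 0.010).

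Caspase substrates of the execution phase fell with hypoxia where they passed the test: 4 of 8 in WT cells and 3 of 8 in FIH-KO cells, with medians of -0.59 and -0.42. The shares over all tested genes, in either direction, were 32.4% and 16.8%. Parp1, the DNA repair enzyme whose cleavage marks apoptosis, had 337.5 and 367.1 CPM in WT normoxia, 193.3 and 212.2 CPM in WT hypoxia, 200.3 and 225.4 CPM in FIH-KO normoxia and 122.5 and 134.5 CPM in FIH-KO hypoxia. It was lower by FIH-KO and by hypoxia, with log2 fold changes between -0.80 and -0.66 (adjusted p = 0.00036 to 0.0014, edgeR). Gsdme, which encodes a pore-forming gasdermin that is activated by caspase cleavage, went from 20.5 and 17.1 CPM to 6.17 and 6.14 CPM with hypoxia in WT cells, a log2 fold change of -1.61 (adjusted p = 0.00016, edgeR). In FIH-KO cells it went from 21.4 and 15.8 CPM to 10.1 and 9.11 CPM, a log2 fold change of -0.95 (adjusted p = 0.0067, edgeR) that was lost without FIH-KO normoxia replicate 1 (-0.70, adjusted p = 0.073). FIH-KO over WT in hypoxia gave 0.64 (adjusted p = 0.038, edgeR), which was lost without any 1 of the 4 hypoxic libraries (adjusted p up to 0.12) and with only those 4 in the fit (adjusted p = 0.070).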

How the data were processed

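RNA-Seq was performed on WT and FIH-KO LLC cells, with 2 libraries in each of 4 groups taken from the sample titles. The authors prepared stranded mRNA libraries and used STAR for alignment (GRCm39) and HTSeq for counting. The deposited values are raw counts of 53700 genes. The submitters' processing notes also list GRCm38. The annotation release and the strand setting are not given in the sources used here. Identifiers were matched to GENCODE for GRCm39 (52610, 97.97%), from which positions, transcript starts and exon lengths were taken.

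The main test was the quasi-likelihood F test of edgeR 4.0.16 under R 4.3.3. Low counts were removed with filterByExpr, which left 13933 genes, TMM factors were applied, and the 4 group means were fitted jointly with 4 residual degrees of freedom. P values were Benjamini-Hochberg adjusted over all tested genes, with a threshold of 0.05. The common biological coefficient of variation was 11.7%. RPKM were TMM-scaled CPM per kb of exon, with all annotated exons of a gene merged. The intervals of ratios are exact at 95% and cover counting error only. Alternatives were DESeq2 1.42.0, other normalizations and filters, fewer libraries and a replicate term. Promoters were read with pysam 0.24.0, tables were handled with pandas 2.3.3, and plots were drawn with matplotlib 3.10.9 in Python 3.11.15.

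The 8 genes and the lists were chosen with earlier results of these data known. Named list genes were the 2 with the smallest adjusted p in each list, plus Birc5, Cflar and Diablo, and the results of some genes under this rule are not reported here. Clk1, Ndufb3, Bzw1, Cep126, Mmp3, Mmp10, Mmp1a, Mmp1b and Tmem123 among the neighbours were named after their values were seen. So were Fas, Tnfrsf1a and the NF-kB genes listed by name.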

Additional observations from a re-analysis of the deposited data

How the results depend on the processing

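Across the alternatives, the count of called genes among the 8 was the same or within 1.5 times, except as follows. When the fit held no more than the 4 hypoxic libraries, 1 gene (Casp9) was called for FIH-KO in hypoxia. When each library was left out in turn, the count ran from 0 to 2 for FIH-KO in normoxia, from 1 to 3 for FIH-KO in hypoxia, from 0 to 2 for hypoxia in WT cells and from 0 to 1 for hypoxia in FIH-KO cells. The test of the difference between genotype effects called none of the 8 genes under any alternative. Over all genes, with all 8 libraries in the fit, it called 35 with DESeq2, 5 with the replicate block and 143 with no filter (25720 genes tested), against 0 in the reported fit. Some fits with a library left out also called genes.

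Of 320 fold changes of the 8 genes with a library left out, 268 kept direction and call, 22 lost a call, 2 gained one and 28 changed sign. Of 272 under the other alternatives these numbers were 265, 3, 1 and 3. No result with a call in the reported fit changed sign. The 3 were Birc2 for FIH-KO in normoxia, at -0.002 with upper-quartile factors and -0.001 with at least 10 counts in every library, and the difference of genotype effects of Casp8, at 0.001 with that filter. For the left-out libraries, the log2 ranges of the results that changed sign were as follows. Those of Cflar, which is not among the 8 genes, are added and are not part of the 28. For FIH-KO in normoxia they were -0.19 to 0.075 (Casp8), -0.059 to 0.16 (Apaf1), -0.17 to 0.13 (Birc2) and -0.002 to 0.26 (Cflar). For FIH-KO in hypoxia they were -0.16 to 0.073 (Casp8) and -0.16 to 0.021 (Birc2). For hypoxia in WT cells they were -0.025 to 0.11 (Casp6), -0.34 to 0.007 (Apaf1) and -0.055 to 0.19 (Cflar). For hypoxia in FIH-KO cells they were -0.22 to 0.079 (Casp9), -0.085 to 0.14 (Apaf1), -0.28 to 0.15 (Xiap) and -0.014 to 0.25 (Cflar). For the difference of genotype effects they were -0.12 to 0.17 (Casp8), -0.12 to 0.34 (Xiap), -0.19 to 0.11 (Birc2) and -0.36 to 0.62 (Birc3). The cause was not tested.

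Deviations of same-numbered libraries correlated between -0.01 and 0.193. The labels do not say whether same-numbered libraries were handled together, and such correlations cannot decide it. With the replicate block, 2, 3, 2, 1 and 0 of the 8 genes were called, as without it, and 4080, 4039, 4593, 2479 and 5 of all genes. With only its 4 libraries, hypoxia in FIH-KO cells had 1289 calls (9.83% of tested genes), against 2345 (16.8%) in the reported fit. Of these calls 62.7% were higher, against 52.5% in the reported fit. Hypoxia in WT cells had 5660 calls (42.6%) with only its 4 libraries, against 4509 (32.4%). The background shares thus depend on which libraries are fitted together. With 22 to 118 reads a library, depth limits Birc3 most.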
